A study of Mus musculus with 20 samples.

Results

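The genes described here encode the machinery that forms, loads and releases exosomes, together with the membrane proteins by which exosomes are recognised. They were chosen by name, from what their products are known to do, with earlier results of these data known. The list held 56 gene names, of which 53 were found among the 14456 genes of the table. Vps22 is another name of Snf8 and is counted once, and Vps28 and Vamp7 were not analysed here.

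Exosomes arise when the membrane of a late endosome buds inward and forms small vesicles, which are set free when the endosome fuses with the cell surface. The ESCRT complexes act in sequence to gather ubiquitinated cargo and to cut the vesicle neck, while tetraspanins, syntenin with ALIX, and the lipid ceramide provide partly separate routes. Rab GTPases move and dock the endosomes, SNARE proteins fuse them with the plasma membrane, and macrophages use much of the same machinery to degrade what they have taken up.

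Total RNA was sequenced from bone marrow-derived macrophages (BMDM), which were grown with M-CSF for 6 days from the marrow of male C57BL/6J mice aged 8 to 12 weeks. Cells that would produce exosomes were kept for 24 h in high glucose (25 mM glucose, n = 4 libraries) or in normal glucose (5.5 mM glucose plus 19.5 mM mannitol, a sugar alcohol that keeps the osmolarity equal, n = 4 libraries). Naive BMDM that received exosomes were exposed for 24 h to PBS, to exosomes of BMDM cultured in normal glucose (NG-exo) or to exosomes of BMDM cultured in high glucose (HG-exo), with 2000000000 particles per ml and n = 4 libraries each. Nothing read here says that the libraries of either experiment came from separate animals. For the exosome experiment, the paper states only that the exosomes were prepared separately for each sample. The p-values therefore measure the spread between these libraries.

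The deposited values are normalized counts, that is, gene counts divided by 1 size factor per library. The 20 libraries held between 34016445 and 56310712 reads on the listed genes, and the members took between 0.489% and 0.530% of them. All 8 macrophage markers were listed, and their summed normalized count ran from 628420 to 878735. The 5 listed neutrophil markers summed to between 165 and 378, the 4 listed stromal markers to between 88.6 and 355, and the 2 listed osteoclast markers to between 51.6 and 179, while the dendritic, lymphocyte, erythroid and mast cell markers were not analysed here. The mean correlation with the other libraries of the group was between 0.979 and 0.988, and PBS library 1 had the lowest. That library also had 47 listed genes at 0, against 2 to 14 in the other libraries.

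Promoter sequences are shown for Cd9, whose change in high glucose had the smallest p-value among the members. They are also shown for Ralb and Rab35, whose change in high glucose differed from that between HG-exo and NG-exo in limma. That test passed 3.77% of the members, against 4.74% of all genes. Each RefSeq window of GRCm38.p6 spans 250 bases before to 50 bases after the gene's start and is written in the direction of the gene. Cd9 lies on the minus strand at chr6:125494711-125495010, Ralb on the minus strand at chr1:119504733-119505032 and Rab35 on the plus strand at chr5:115631737-115632036. Capitals mark the E-box core CACGTG, which reads the same on both strands and is bound by factors of the basic helix-loop-helix family.
Cd9: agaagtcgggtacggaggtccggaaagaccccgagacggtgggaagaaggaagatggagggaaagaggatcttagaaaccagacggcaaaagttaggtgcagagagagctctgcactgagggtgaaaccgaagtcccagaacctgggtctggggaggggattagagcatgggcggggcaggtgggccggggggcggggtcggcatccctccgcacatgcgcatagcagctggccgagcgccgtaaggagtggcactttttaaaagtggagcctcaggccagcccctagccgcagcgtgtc
Ralb: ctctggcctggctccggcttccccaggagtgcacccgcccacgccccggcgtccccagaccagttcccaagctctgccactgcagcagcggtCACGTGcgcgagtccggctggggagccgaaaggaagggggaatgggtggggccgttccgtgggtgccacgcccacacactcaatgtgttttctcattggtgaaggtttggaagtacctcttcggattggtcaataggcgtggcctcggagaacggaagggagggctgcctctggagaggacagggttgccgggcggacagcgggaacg
Rab35: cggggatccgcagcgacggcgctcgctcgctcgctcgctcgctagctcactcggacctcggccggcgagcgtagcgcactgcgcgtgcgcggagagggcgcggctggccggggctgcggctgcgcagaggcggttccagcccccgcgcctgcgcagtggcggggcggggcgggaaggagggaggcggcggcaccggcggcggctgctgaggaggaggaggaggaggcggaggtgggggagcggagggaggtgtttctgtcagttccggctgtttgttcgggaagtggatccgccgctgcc
The GC content was 61.3% for Cd9, 65.3% for Ralb and 75.3% for Rab35. CACGTG was found in the windows of 7 of the 44 members that had one (15.9%), against 11.9% of the listed genes with a window and 8.09% of all genes with one. The members with a match were Cd37, Pdcd6ip, Rab27a, Rab5a, Ralb, Smpd2 and Tspan4. Of the 7 members that rose in high glucose, Ralb alone had a match, and the missing letters in the other windows say nothing about the factors that bind them.

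In macrophages most of these genes were expressed at a high level that differed little between groups. Levels are compared between genes as normalized counts per kb of exon, and the members had a median percentile of 86.3 among the listed genes on this scale. Of the 53 members, 22 lay above the 90th percentile. The highest were Arf6, a GTPase of endosome recycling (group means of 4230 to 4635 per kb), the leukocyte tetraspanin Cd53 (4108 to 4533 per kb) and Chmp4b, the filament-forming subunit of ESCRT-III (3940 to 4139 per kb). Rab7, which directs late endosomes to lysosomes, had between 3718 and 4147 per kb, and the tetraspanins Cd63 and Cd9 had 3624 to 4174 and 3210 to 4168 per kb.

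The 4 members below the 50th percentile were Stam, Smpd2, Rab27a and Vps25. Rab27a, which docks multivesicular endosomes at the plasma membrane in many cell types, averaged 59.6 per kb over the 20 libraries, against 4018 per kb for Rab7 and 2483 per kb for Rab5c. Smpd2, a neutral sphingomyelinase that makes ceramide, averaged 76.4 per kb. Within ESCRT-0, the complex that binds ubiquitinated cargo, Hgs averaged 1513 per kb, and its partners Stam2 and Stam averaged 306 and 146 per kb. Vps25, a core subunit of ESCRT-II, averaged 19.2 per kb, and its values rest on 6 to 55 reads per library. Its exons overlap those of Ramp2 on the same strand over 1103 bases, and such reads cannot be assigned to 1 gene. A second annotated entry named Hgs likewise overlaps 2897 bases of the Hgs exons, so the level of Hgs is uncertain too.

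When the members were ordered by their level per kb in normal glucose, the libraries of 39 of the 52 neighbouring pairs overlapped. At the top, each of Cd53, Arf6, Chmp4b and Rab7 overlapped the next in the order, down to Cd63, although Cd53 and Arf6 lay above Rab7 and Cd63 with no overlap. Cd63 lay above Cd9 and Cd9 above Sdcbp, the gene of syntenin, also with no overlap. At the bottom, Smpd2 and Rab27a overlapped, and Vps25 lay below both. The coefficient of variation over all 20 libraries had a median of 6.15% for the members, 6.26% for listed genes of like count and 11.6% for all listed genes. The highest of the 5 group means was 2.45 times the lowest for Vps25, 1.30 times for Cd9 and 1.26 times for Flot1, and less for the other 50 members.

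**Figure D1:**
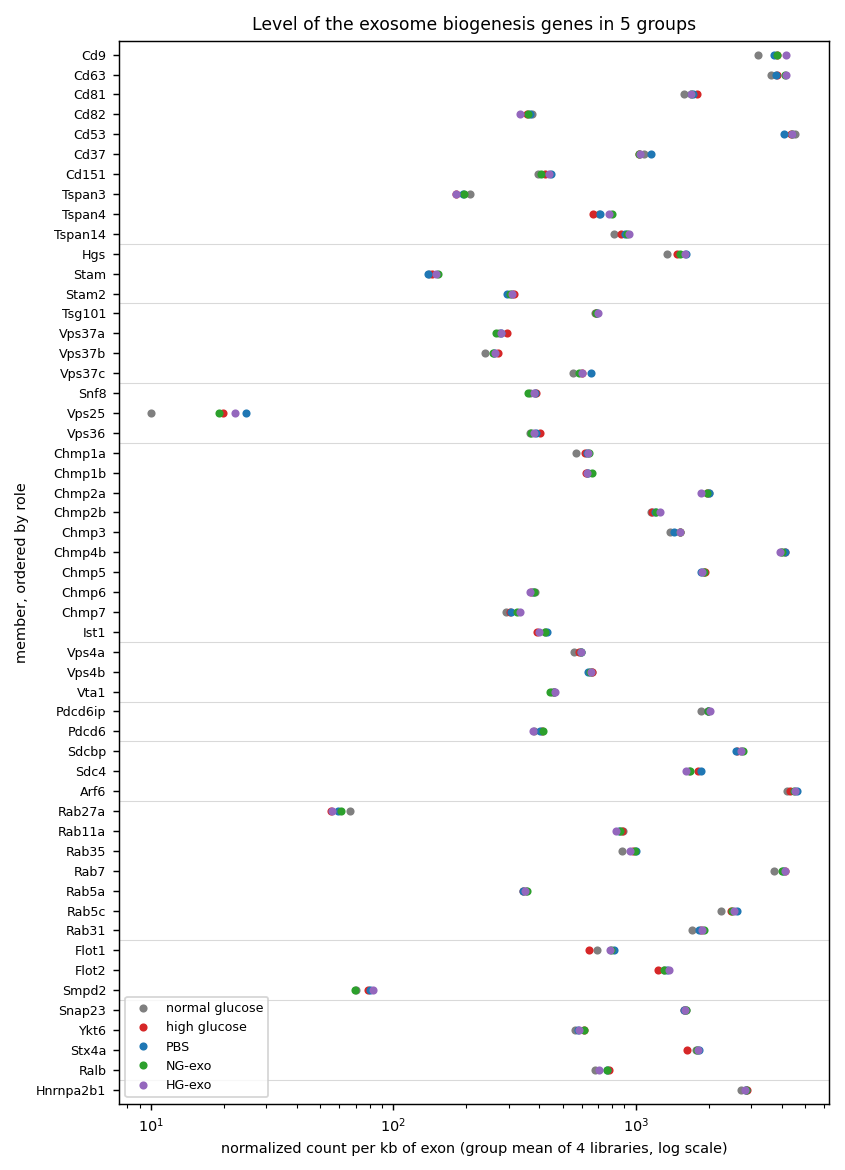
Normalized count per kb of exon (log scale, group mean of 4 libraries) of the 53 members, ordered by role, with 1 point for each of the 5 groups. The points of a gene lie close together, and the genes run from Vps25, at a mean of 19.2 per kb, to Arf6, at 4452 per kb.

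High against normal glucose asks whether macrophages change the expression of the exosome machinery when they produce exosomes in high glucose. Of the 53 members, 7 rose and none fell (adjusted p under 0.05 in limma, by the Benjamini-Hochberg method across the 14425 genes with enough reads). The members called were 13.2%, and over all genes 13.3% were called, of which 7.74% of the genes tested were higher and 5.53% lower. The 7 were the tetraspanins Cd9 and Cd81, the GTPases Rab7, Rab35, Rab5c and Ralb, and the ESCRT-III subunit Chmp3. Their log2 fold changes were between 0.13 and 0.26. DESeq2 called 9 members higher and 1 lower, namely Stx4a, and edgeR called 7 higher and none lower. Over all genes, DESeq2 called 1221 higher and 941 lower, and edgeR 1081 and 823. The median log2 fold change was 0.06 over the members and -0.003 over all genes, and 35 members had a value above 0.

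The balance of directions also depended on the scaling. With quantile normalization, 3 members rose (Cd9, Ralb and Cd81) and 2 fell, namely the SNARE gene Stx4a (log2 fold change -0.15, adjusted p = 0.019) and Sdcbp (-0.10, adjusted p = 0.037), and over all genes the share of calls that were higher went from 58.3% to 47.5%. The summed count of the macrophage markers was also higher in high glucose (808014 to 878735) than in normal glucose (628420 to 702912). Most of this sum was Lyz2, the gene of lysozyme, and Lyz2, Csf1r, Cd14 and Adgre1 were higher without overlap, whereas Cd68 and Mertk were lower without overlap. The osteoclast markers summed to 94.3 to 140 against 51.6 to 82.1. Of these, Ctsk had 83.5 to 124 against 29.8 to 70.4, whereas Dcstamp overlapped, with 8.47 to 25.9 against 11.7 to 21.8. The part of these shifts in the result was not tested. In bulk RNA, fewer cells of a type and less RNA per cell cannot be told apart.

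Cd9 encodes a tetraspanin that organises membrane microdomains and is a widely used exosome marker (ENSMUSG00000030342, chromosome 6 of GRCm38, 125460266 to 125494791). Its normalized count was 6563, 6296, 6721 and 6666 in the normal glucose libraries 1, 3, 5 and 6, and 7215, 7848, 8185 and 8188 in the high glucose libraries 1, 2, 4 and 6. Every high glucose library lay above every normal glucose library. The means were 6562 ± 189 and 7859 ± 458 (SD, n = 4 each), and the log2 fold change was 0.26 ± 0.041 (SE, adjusted p = 1.9e-05).

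Cd81, another tetraspanin and exosome marker, lies on chromosome 7 (143052739 to 143067934). It had 4440, 4266, 4720 and 4763 normalized counts in normal glucose, against 5155, 4984, 5317 and 5089.5 in high glucose. The groups did not overlap, and the log2 fold change was 0.18 ± 0.043 (SE, adjusted p = 0.0041). Cd63, the tetraspanin that gathers in late endosomes and lysosomes, was not called: it had 13130, 12989, 13043 and 14211 normalized counts in normal glucose, against 13485, 14126, 14847 and 14210 in high glucose. Its groups overlapped through normal glucose library 6, without which it passed (adjusted p = 0.035), and its log2 fold change was 0.09 ± 0.037 (SE, adjusted p = 0.13). Of the 10 tetraspanins, 2 rose and 8 were not called, and their log2 fold changes ran from -0.20 for Tspan3 to 0.26 for Cd9.

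Among the 7 Rab GTPases, 3 rose and 4 were not called. Rab7 had 9450.5, 10071, 9495 and 9801.5 normalized counts in normal glucose, against 10511, 10976, 10698 and 11113 in high glucose, with no overlap and a log2 fold change of 0.16 ± 0.036 (SE, adjusted p = 0.0022). Rab35, which acts in endosome recycling and in exosome docking, had 2461, 2432, 2545 and 2452 against 2898, 2774, 2668 and 2673. Its groups did not overlap either, and its log2 fold change was 0.15 ± 0.048 (SE, adjusted p = 0.028). Rab5c, a GTPase of early endosomes, had 4682, 4837, 5026 and 5260 against 5373, 5475, 5428 and 5415, a log2 fold change of 0.13 ± 0.042 (SE, adjusted p = 0.029). The high glucose libraries of Rab5c lay close together, above the highest normal glucose library. Rab31 stood at 0.11 (adjusted p = 0.066), and Rab27a had the lowest value among the members, at -0.26 ± 0.16 (SE, adjusted p = 0.31).

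Ralb, a GTPase that acts through the exocyst in the tethering of vesicles to the plasma membrane, lies on chromosome 1 (119470305 to 119504794). Its normalized count was 3631, 3158, 3342 and 3286 in normal glucose, against 3744, 3815, 3879 and 3937 in high glucose. All high glucose libraries were higher, normal glucose library 1 being the nearest to them, and the log2 fold change was 0.20 ± 0.046 (SE, adjusted p = 0.0028). The other members of membrane fusion, Snap23, Ykt6 and Stx4a, were not called, with log2 fold changes of -0.03, 0.12 and -0.12. Stx4a was the only member for which all high glucose libraries lay below all normal glucose libraries (limma, adjusted p = 0.075), and DESeq2 called it lower (log2 fold change -0.12, adjusted p = 0.037). In the opposite direction 11 members had no overlap, against 9.18% of all genes tested, while 7.11% of all genes were lower without overlap.

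Chmp3 was the only one of the 20 ESCRT genes of complexes 0 to III to be called. It had 4643, 4632, 4273 and 4422 normalized counts in normal glucose, against 4617, 4894, 5161 and 5065.5 in high glucose. The groups overlapped, since high glucose library 1 lay below normal glucose libraries 1 and 3, and the log2 fold change was 0.13 ± 0.044 (SE, adjusted p = 0.036). The 3 genes of ESCRT-0, the 4 of ESCRT-I and the 3 of ESCRT-II all had values above 0 without passing the test, and the other 9 ESCRT-III genes ran from -0.11 for Ist1 to 0.13 for Chmp1a. Tsg101, the ESCRT-I subunit that recruits cargo and ALIX, stood at 0.01 (adjusted p = 0.94). Vps25 had the highest value, 0.98, with a standard error of 0.40 (adjusted p = 0.11). The ATPases Vps4a and Vps4b, which take ESCRT-III apart, and their cofactor Vta1 had values between -0.0004 and 0.07.

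The study blotted the proteins ALIX, flotillin, CD81 and CD9 in its exosomes. Of these proteins' genes, limma called only Cd9 and Cd81, in the RNA of the producing cells. RNA in cells and protein in exosomes are different measures. For the exosomes themselves, the paper reports similar particle concentrations, protein levels and secretion rates in both glucose conditions. Pdcd6ip, which encodes ALIX, had 12772, 12966, 12660 and 13038 normalized counts in normal glucose, against 13679, 14038, 13712 and 13539 in high glucose. The groups did not overlap, but the log2 fold change was 0.10 ± 0.033 (SE) and limma's adjusted p = 0.052 missed the threshold, which DESeq2 passed (adjusted p = 0.014). Flot1 had 1985, 2116, 1976 and 1920 against 1885, 1811, 1808 and 1963, and Flot2 had 3726, 3492, 3712 and 3425.5 against 3502, 3258, 3379 and 3397. Both flotillins, scaffold proteins of membrane rafts, had overlapping groups and log2 fold changes of -0.10 (adjusted p = 0.26) and -0.08 (adjusted p = 0.25). Sdc4, a heparan sulphate proteoglycan whose tail binds syntenin, had 4220, 4539, 4045 and 4143 against 4831, 4703.5, 4360 and 4567. One normal glucose library reached into the high glucose range, and the log2 fold change was 0.12 (adjusted p = 0.064). Hnrnpa2b1, an RNA-binding protein that loads miRNAs into exosomes, had one of 0.09 (adjusted p = 0.070).

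**Figure D2:**
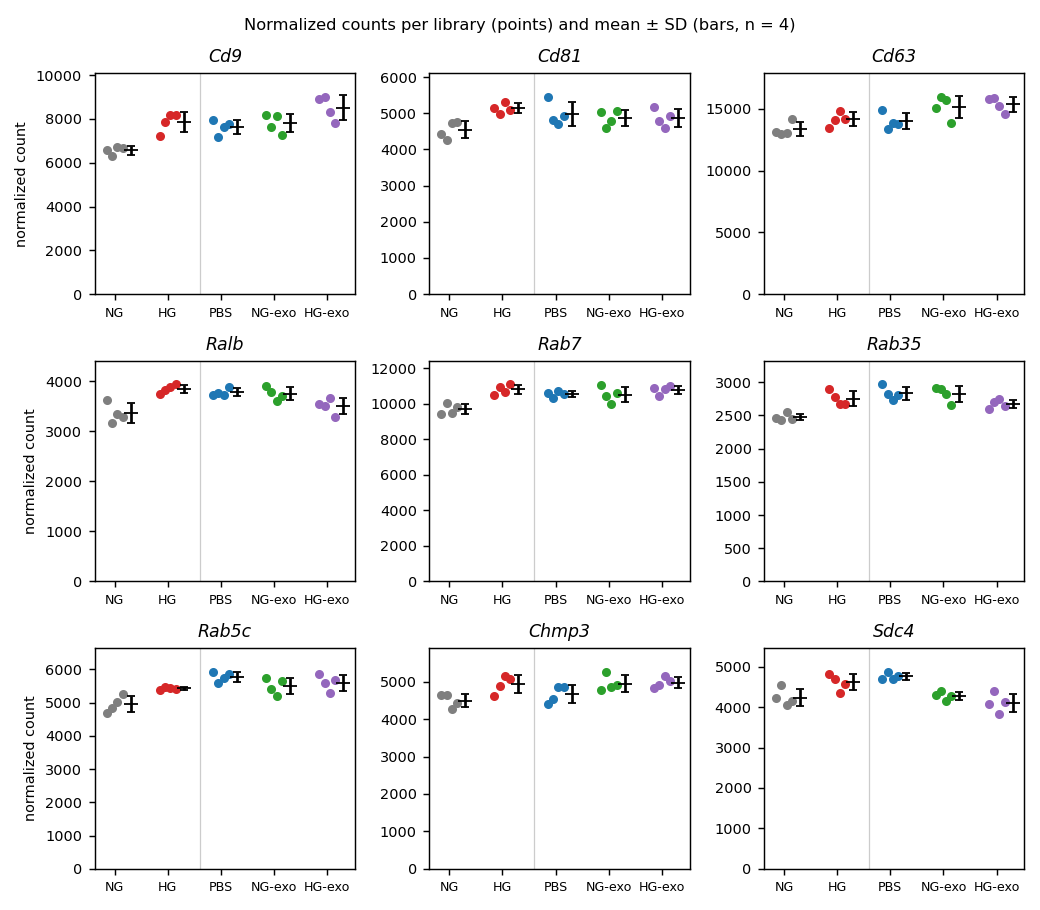
Normalized count (axis from 0) in each library (points) and the mean ± SD (bars, n = 4) of the 7 members that rose in high glucose, of Cd63 and of Sdc4, in normal glucose (NG), high glucose (HG), PBS, NG-exo and HG-exo. The Cd9 points of high glucose, from 7215, all lie above those of normal glucose, up to 6721, and the Sdc4 points of both exosome groups lie below those of PBS.

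Of the 7 calls, those of Cd9, Cd81, Rab7 and Ralb held when any 1 of the 8 libraries was left out. Rab35 lost its call without normal glucose library 3 or 6 or high glucose library 1 or 2 (adjusted p up to 0.11), Rab5c without normal glucose library 1 or 3 or high glucose library 2, 4 or 6 (up to 0.090), and Chmp3 without normal glucose library 5 or 6 or high glucose library 2, 4 or 6 (up to 0.14). Without high glucose library 2, 4 members passed. Without the trend of the variance on the mean, only Cd9 did (adjusted p = 0.043). Over all genes, that fit called 387 higher and 267 lower, against 1116 and 798 with the trend.

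In BMDM exposed to HG-exo, no member was called against the 8 PBS and NG-exo libraries taken as 1 control group, the contrast the study used. For exosomes a call also needed a log2 fold change of 0.15 or more in size, and 0.201% of the 14413 genes tested were called. At an unadjusted p under 0.05 there were 4 members (7.55%, limma), against 10.5% of all genes. No member was called by edgeR or DESeq2 either. Over all genes limma called 10 higher and 19 lower, whereas DESeq2, the tool the paper used, called 51 and 85. All members had log2 fold changes between -0.14 and 0.14. The 95% interval lay within -0.5 to 0.5 for 52 of the 53, the exception being Vps25, and within -0.3 to 0.3 for 50. The smallest p-values were those of Cd9 (log2 fold change 0.14 ± 0.041 SE, adjusted p = 0.15), Sdc4 (-0.14 ± 0.046 SE, adjusted p = 0.23) and Ralb (-0.11 ± 0.039 SE, adjusted p = 0.30).

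**Figure D3:**
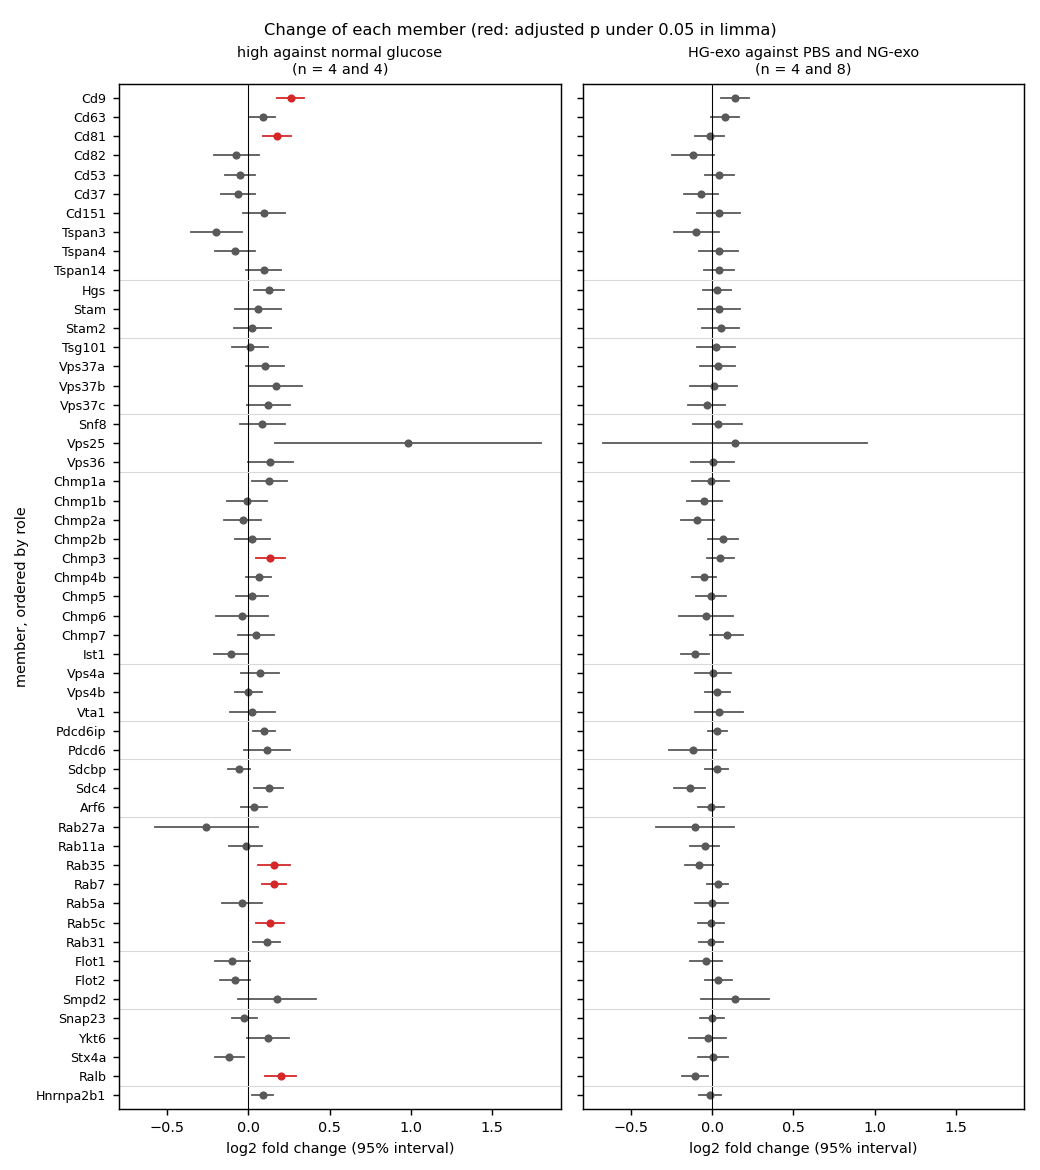
Log2 fold change with its 95% interval for the 53 members, ordered by role, in high against normal glucose (left) and in HG-exo against the PBS and NG-exo libraries combined (right), on the same axis. Red marks the 7 members with an adjusted p under 0.05, all in the left panel and all above 0.

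Against PBS alone, exosomes of both kinds were followed by a lower Sdc4. The comparisons with PBS share the PBS libraries, so they are not independent. Sdc4 lies on chromosome 2 (164424247 to 164443887) and had 4688, 4881, 4689 and 4775 normalized counts with PBS, 4290, 4390, 4154 and 4276 with NG-exo, and 4088, 4388, 3821 and 4115.5 with HG-exo. All 8 exosome libraries lay below all 4 PBS libraries. The log2 fold change was -0.15 with NG-exo ± 0.044 (SE, adjusted p = 0.040) and -0.22 with HG-exo ± 0.044 (SE, adjusted p = 0.0011).

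Sdc4 was the only member called with NG-exo against PBS, where 3.0% of all genes were (0.888% higher and 2.11% lower). Its call with NG-exo was lost when any of the 8 PBS and NG-exo libraries was left out (adjusted p of 0.053 to 0.15), whereas its call with HG-exo held in all 12 fits without 1 library. The next smallest p-values with NG-exo were those of Cd37, a tetraspanin of leukocytes (log2 fold change -0.16 ± 0.048 SE, adjusted p = 0.051), and of the ESCRT-I subunit Vps37c (-0.17 ± 0.057 SE, adjusted p = 0.11). Cd37 had 4047.5, 3901, 4154.5 and 4149 normalized counts with PBS, 3847, 3603, 3419 and 3645 with NG-exo and 3681, 3338, 3770 and 3861 with HG-exo, and Vps37c had 1789.5, 1722, 1779 and 1803 with PBS, 1638, 1463, 1607 and 1611 with NG-exo and 1607, 1603, 1634 and 1693 with HG-exo. For both genes the PBS libraries were above all exosome libraries. Without overlap, 4 members were higher and 3 lower with NG-exo than with PBS, against 3.64% and 4.63% of all genes, and 1 was higher and 4 lower with HG-exo than with PBS, against 4.41% and 5.59%. With the date in the sample titles as a block, Cd37 passed with NG-exo (adjusted p = 0.023) and with HG-exo (log2 fold change -0.15, adjusted p = 0.030, against 0.059 without the block).

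With HG-exo against PBS, 2 members were called, where 4.84% of all genes were (1.76% higher and 3.08% lower). Besides Sdc4 this was Cd9, with 7961, 7197, 7630 and 7781 normalized counts with PBS, 8183, 7642, 8114 and 7290 with NG-exo, and 8928, 9009, 8337 and 7803 with HG-exo. The lowest HG-exo library overlapped the PBS libraries, and the log2 fold change was 0.16 ± 0.045 (SE, adjusted p = 0.030). The call was lost without PBS library 2 (adjusted p = 0.15), HG-exo library 1 (0.11) or HG-exo library 2 (0.15). Cd63 passed the p-value threshold but not the fold limit, at 0.14 ± 0.040 (SE, adjusted p = 0.031), with 14896, 13383, 13852 and 13761 normalized counts with PBS and 15771, 15897, 15204 and 14606 with HG-exo. With NG-exo the change of Cd63 was 0.12 (adjusted p = 0.12). Without HG-exo library 4, 4 members were called: Sdc4, Cd9, Cd37 and Cd63.

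The macrophage markers summed to between 794502 and 841224 with PBS, 717507 and 773976 with NG-exo, and 735061 and 759636 with HG-exo, so that this sum was lower in the exosome libraries than with PBS. Most of it was Lyz2. Lyz2, Csf1r, Adgre1, Itgam, Fcgr1 and Cd14 were lower without overlap, whereas Mertk and Cd68 overlapped with PBS. Cd68 had 27592 to 29461 with PBS, 29451 to 31556 with NG-exo and 29286 to 31158 with HG-exo. The part of these shifts in the Sdc4 and Cd9 results was not tested.

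Between HG-exo and NG-exo, no member was called, and 0.0139% of all genes were. There were 3 members at an unadjusted p under 0.05 (5.66%, limma), against 6.54% of all genes. These were Cd9 (log2 fold change 0.13 ± 0.045 SE, adjusted p = 0.58), Ralb (-0.10 ± 0.045 SE, adjusted p = 0.71) and Smpd2 (0.24 ± 0.12 SE, adjusted p = 0.75). Neither edgeR nor DESeq2 called a member. Over all genes, DESeq2 called 9 higher and 16 lower. Smpd2 had 332, 316, 309 and 287 normalized counts with NG-exo and 393, 370, 356 and 351 with HG-exo, without overlap, and 323, 421, 346 and 350 with PBS. It was the only member without overlap between these groups, where 1.86% of all genes were higher and 2.01% lower. The 95% interval of the difference lay within -0.3 to 0.3 for 49 members, the others being Vps25, Smpd2, Rab27a and the ALIX partner Pdcd6.

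The change in the cells that make the exosomes was then set against the change in the cells that receive them. The difference between the high glucose change and the HG-exo against NG-exo change was tested in 1 fit of all 20 libraries, and 4.74% of all genes passed at an adjusted p under 0.05 (3.27% higher and 1.47% lower). Of the members, 2 passed (3.77%): Ralb, with a difference of 0.30 on the log2 scale ± 0.063 (SE, adjusted p = 0.0020), and Rab35, with 0.23 ± 0.065 (SE, adjusted p = 0.028). Both rose in high glucose. After exosomes, Ralb had 3907, 3789, 3605 and 3702 normalized counts with NG-exo and 3536, 3503, 3666 and 3286 with HG-exo, and Rab35 had 2908, 2896, 2816 and 2649.5 with NG-exo and 2601, 2696, 2740 and 2647.5 with HG-exo. The groups overlapped for both genes, whose change between the exosome groups was not called.

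Cd9 had values above 0 in both experiments, 0.26 and 0.13, and its difference was 0.13 (95% interval 0.005 to 0.26, adjusted p = 0.27). The next smallest p-value was that of Sdc4, with a difference of 0.19 ± 0.062 (SE, limma, adjusted p = 0.081), which DESeq2 called (0.18, adjusted p = 0.045). Ralb passed in all 20 fits without 1 library, and Rab35 lost its call without normal glucose library 3, high glucose library 1 or 2, NG-exo library 1 or 2, or HG-exo library 1 (adjusted p of 0.052 to 0.078). With the library number or date as a block, neither passed (adjusted p of 0.095 for Ralb and 0.11 for Rab35); of the glucose libraries, that fit compares only numbers 1 and 6. The 2 experiments were also cultured separately, and what else differed between them cannot be told apart from the exposure.

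**Figure D4:**
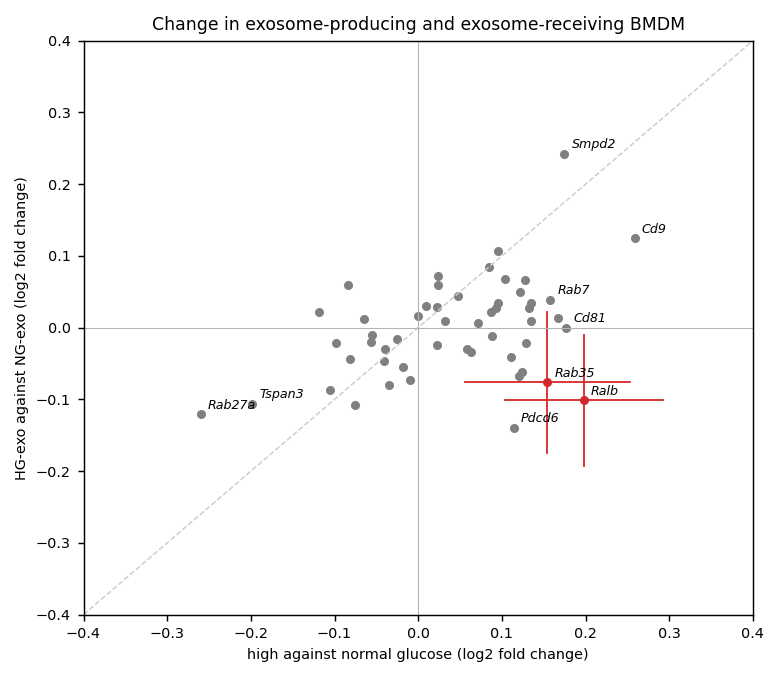
Log2 fold change in high against normal glucose (horizontal axis) and in HG-exo against NG-exo (vertical axis) for the members other than Vps25, which lies outside the axis range. Red marks Ralb and Rab35, with 95% intervals, which lie right of 0 and below the dashed line of equal change.

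Other genes of the same processes were counted from 4 lists of related genes, with 95 of 115 genes tested. The lists, like the members, were chosen with earlier results of these data known. In high glucose, 13 rose (13.7%) and 9 fell (9.47%), against 7.74% and 5.53% of all genes. Among further ESCRT genes the largest changes were those of Ubap1, an ESCRT-I subunit (log2 fold change 0.31, adjusted p = 5.6e-06), and Mvb12b, another ESCRT-I subunit (0.22, adjusted p = 0.0017), followed by the endosomal adaptor Tom1l2 (-0.21, adjusted p = 0.046). Among further tetraspanins Tspan5 rose from 493 ± 40.0 to 706 ± 28.3 normalized counts (SD, n = 4; log2 fold change 0.52) and Tspan13 fell from 524 ± 43.2 to 360 ± 53.1 (-0.55). Smpd3, the neutral sphingomyelinase best known for its part in exosome release, fell from 79.4 ± 23.1 to 34.3 ± 6.52 normalized counts (log2 fold change -1.17, adjusted p = 0.0043). Of the 37 genes tested in the docking list, 2 rose (5.41%) and 4 fell (10.8%), Smpd3 being among the latter. Those that rose were the SNARE gene Stx3 (0.27) and Tbc1d10b, a GTPase-activating protein of Rab proteins (0.21).

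The list of vesicle cargo scaffolds and RNA sorting genes had 8 of 29 genes higher (27.6%) and 2 lower (6.90%) in high glucose, against 7.74% and 5.53% of all genes. Isg15, an interferon-induced ubiquitin-like modifier, rose from 199 ± 36.7 to 372 ± 17.4 normalized counts (SD, n = 4; log2 fold change 0.92). Marcksl1, a membrane-associated actin regulator, rose by 0.57, and Ehd1, an ATPase of endosome recycling, by 0.39. Each of these 3 genes fell after exosomes of either kind against PBS. Marcksl1 went from 2128 ± 106 with PBS to 1230 ± 138 with NG-exo and 1133 ± 104 with HG-exo, log2 fold changes of -0.80 and -0.91. Isg15 had -0.68 and -0.70, and Ehd1 had -0.41 and -0.46.

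Over the 4 lists, 1 gene rose (1.05%) and 5 fell (5.26%) with NG-exo against PBS, where 0.888% of all genes rose and 2.11% fell. With HG-exo against PBS, 3 rose (3.16%) and 7 fell (7.37%), where 1.76% of all genes rose and 3.08% fell. The genes of the docking list that fell were Sdc3, a syndecan like Sdc4 (-0.21 with NG-exo and -0.27 with HG-exo), and the SNARE gene Vamp2 (-0.29 with HG-exo), while Stx3 rose with HG-exo (0.19). The ubiquitin ligase Wwp1 rose with NG-exo (0.15). Of the list of cargo scaffolds and RNA sorting genes, Anxa4 (0.23) and Ago2 (0.19) rose with HG-exo. In that list Marcks (-0.18 with NG-exo and -0.27 with HG-exo) and Bst2 (-0.29 with HG-exo) also fell. No gene of the 4 lists was called with HG-exo against the combined controls or against NG-exo (limma). For the difference between the glucose and the exosome change, 9 were higher (9.47%) and 2 lower (2.11%), against 3.27% and 1.47% of all genes, with Isg15 (0.93), Tspan13 (-0.70) and Marcksl1 (0.68) having the largest values.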

How the data were processed

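RNA was measured in 20 mouse BMDM libraries. Per the methods and labels, the authors trimmed reads with cutadapt, aligned them to GRCm38 by STAR, and let featureCounts assign them to genes on the sense strand of read 2; the annotation they counted on is not given in the sources used here. The deposited signal is the count of a gene divided by the DESeq2 size factor of its library. Whole reads were recovered for all values (tolerance 0.01 reads), which gave the totals and the edgeR and DESeq2 alternatives. Of the 14456 listed genes, 14421 were named by GENCODE M21, and the lowest median of reads of a listed gene was 11. No 2 libraries of a group were copies (chi-square per degree of freedom of 5.19 to 41.9 over 30 pairs).

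Log2(normalized count + 1) was tested two-sided with limma 3.58.1 in R 4.3.3 (lmFit, eBayes with trend) and Benjamini-Hochberg adjustment over all genes whose mean normalized count was 10 or more. The 8 glucose and the 12 exosome libraries were fitted separately. The threshold was an adjusted p of 0.05, and for exosomes also an absolute log2 fold change of 0.15. The 3 exosome groups each have 1 library for each of 4 dates in the sample titles, which served as a block in an alternative; libraries of 1 date correlated with a mean r of 0.012 after removal of the group means (12 pairs), other libraries with -0.004 (36 pairs). Alternatives used edgeR 4.0.16 (quasi-likelihood), DESeq2 1.42.0, other pseudocounts, filters, scalings and weights, and each library left out. The fits were tested on simulated data.

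Members and lists were chosen with earlier results of these data known. Values per library are given for members called, for genes of the blotted proteins and for Cd63. Where fewer than 3 were called, they are given for the 3 members with the smallest p. From the related lists, the 3 called genes with the largest change per list and comparison are named. Every gene of those lists called with exosomes against PBS is named too. Figures were made with Python 3.11.15 and matplotlib 3.10.9.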

Additional observations from a re-analysis of the deposited data

Results flagged for a closer look

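In 3 of 75 groups of 4 libraries examined, for 15 members, 1 library lay far from the other 3, by a gap over the range of the group above Dixon's 95% critical value; chance gives this for about 1 group in 20. Cd63 had 14211 normalized counts in normal glucose library 6, against 12989 to 13130 in the others (gap over range 0.885). Vps37c had 1261 in normal glucose library 3, against 1553 to 1592 (0.883). Flot1 had 2088 in NG-exo library 3, against 2356 to 2378 (0.925). None of the 3 genes was called in high against normal glucose.

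The change in high glucose differed from the change after HG-exo against NG-exo for Ralb and Rab35, as tested by limma in 1 fit of all libraries. The difference was 0.30 on the log2 scale for Ralb (adjusted p = 0.0020) and 0.23 for Rab35 (adjusted p = 0.028). The members passing were 3.77%, against 4.74% of all genes. With the library number or date as a block, neither passed (limma, adjusted p of 0.095 and 0.11). Rab35 also lost its call with quantile normalization (limma, adjusted p = 0.085) and in some fits without 1 library.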

How the results depend on the processing

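None of the 15 members with values per library reversed its direction in the comparisons for which it was named, under the alternatives that were run. In high against normal glucose, the 7 calls became 1 without the variance trend and 1 with the library number as a replicate block. That block compares only numbers 1 and 6. Libraries of the same number correlated with a mean r of 0.007 (2 pairs), so the numbers were not taken as pairs. Over all genes, the main fit called 1116 higher and 798 lower. These calls became 387 and 267 without the trend, and 518 and 270 with the block. Of the members, array weights called 10 and DESeq2 9 higher and 1 lower. A mean of at least 50 gave 9, all 20 libraries in 1 fit 8, and the fold limit of 0.15 gave 5. Over all genes these settings called 1190, 1221, 1189, 1072 and 936 higher and 849, 941, 826, 720 and 735 lower, in that order. Leaving out 1 library gave 4 to 8 members. For NG-exo against PBS, the 1 call became 2 with a pseudocount of 5, with genes of a mean of at least 50 and with TMM factors. It also became 2 with edgeR and with the date as a replicate block. DESeq2 gave 3 members, the fit without the trend 0, and leaving out 1 library 0 to 2. All genes called were 128 higher and 304 lower in the main fit, 161 and 351 with DESeq2, and 26 and 69 without the trend. With HG-exo against PBS, the 2 calls became 1 without the trend, where the calls over all genes went from 254 higher and 444 lower to 92 and 203. They became 3 with a mean of at least 50, with quantile normalization and without the fold limit, and 1 to 4 without 1 library. For the difference between both changes, the 2 calls became 1 with quantile normalization and 0 with the replicate block, and 1 to 3 without 1 library. Array weights and DESeq2 each gave 3, Sdc4 being added. All genes passing were 472 higher and 213 lower in the main fit, 322 and 290 with quantile normalization, and 237 and 59 with the block. HG-exo against the combined controls and against NG-exo gave 0 member calls in all settings. With the date as a block, HG-exo against PBS had 3 calls. Cd37 was the member added there and in NG-exo against PBS, and the block changed no other member call in the exosome comparisons. For the fits without the trend, with other scalings and with other tools, the cause was not tested.

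The precision limits the low genes most: Vps25 had 6 to 55 reads per library and every other member at least 160, and a log2 fold change of 0.98 in Vps25 did not pass. With 4 libraries a group, the median 95% interval of a member reached 0.11 to either side on the log2 scale in high against normal glucose. Levels set across the 2 experiments were not tested.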

Other observations

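For 6 of the 7 members that rose in high glucose, the mean of the PBS group, naive BMDM of the other experiment, lay nearer to the high glucose mean than to the normal glucose mean. Cd9, for example, had 6562 ± 189 normalized counts in normal glucose with mannitol, 7859 ± 458 in high glucose and 7642 ± 326 with PBS (SD, n = 4 each), and Rab35 had 2473 ± 49.5, 2753 ± 108 and 2830 ± 101. Chmp3 was the exception. Over all 1116 genes that rose in high glucose the share was 68.5%, and over the 798 genes that fell it was 63.9%. The experiments were cultured separately and carry no common control, so the culture and the exposure cannot be told apart, and the comparison was chosen after the values were seen.

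Smpd3 had 35.5 ± 5.27 normalized counts with PBS, 36.7 ± 11.4 with NG-exo and 27.9 ± 10.6 with HG-exo, near the 34.3 ± 6.52 of high glucose and below the 79.4 ± 23.1 of normal glucose.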
